A study of Mus musculus with 8 samples.

Results

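The genes described are the cytokine receptors that follow the systematic mouse symbols. They were taken from the deposited expression table as every symbol made of Il, digits and r, every symbol starting with Ifnar, Ifngr or Tnfrsf, and Il6st. Il1rn, which encodes a secreted antagonist and no receptor, was left out, as were Il4ra and Il7r, which appear below only among the receptors outside the symbol rule. The choice gave 48 of 12701 genes, all annotated as protein coding. The symbol rule itself used no measured value. It was set with earlier results of these data known, however, and the deposited table had already been filtered. RNA had been sequenced from alveolar macrophages (tissue-resident macrophages) sorted from the lungs of C57BL/6 mice. The d15 group (2 libraries) and the d35 group (3 libraries) carry labels of mice 15 and 35 days after KP tumor cells were given, and the naive group (3 libraries) carries labels of mice without tumor. KP cells are a cultured mouse lung adenocarcinoma line. They reached the lung by injection into the tail vein, with or without a GFP marker, and the labels do not say which form each mouse received. The growth protocol ends its harvest period at day 30, so the later time is uncertain. The labels name no transgene, Cre or deletion in the host mice of any group. Whether each library is a mouse of its own is not stated, so the p-values cover differences among these samples that may be technical.

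Cytokine receptors carry signals from secreted or membrane-bound proteins into the cell. Interferon receptors and many interleukin receptors pair a ligand-binding chain with a second chain, which some receptors share. They signal through Janus kinases (JAK) and STAT transcription factors. IL-1 and IL-17 receptors signal through adaptors to NF-kB, and TNF receptors recruit TRAF adaptors or death-domain proteins. Alveolar macrophages depend on GM-CSF for their identity, and interferon gamma, TNF, IL-4, IL-13 and IL-10 are textbook regulators of macrophage state. Some receptors act as decoys, binding a ligand without passing on its signal.

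Libraries held between 27465745 and 39572173 recovered reads. Values are given as scaled CPM, the authors' deposited unit, in which a library with no read of a gene still shows a small value from an added 0.5 read. All 12 alveolar macrophage markers examined were above the filter on low values, and their summed level was 34260 to 38970 scaled CPM at d15, 35300 to 49360 at d35 and 25200 to 32710 in naive libraries. Chil3 had the highest level of the 12. By the test described below, Pparg and Ear2 were higher at d15 than in naive. At d35, Cd68, Ear2 and Car4 were higher and Siglecf was lower than in naive. Between the times, Cd68 was higher and Pparg lower at d35. Replicate 2 of d35 lay nearest to the other groups on the first principal component, at 14.3 against 36.6 and 30.2 for the other d35 libraries. The 48 receptor genes together took 0.337% to 0.382% of the reads of a library, and 45 to 48 of them had at least 1 read.

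Levels between genes were compared per kilobase of the longest protein-coding transcript. By that measure the interferon gamma receptor chain Ifngr1 led, with a mean over all libraries of 191.9 scaled CPM per kb. It was followed by Tnfrsf1b (TNF receptor 2) at 142, Tnfrsf21 (death receptor 6) at 112.5, Tnfrsf1a (TNF receptor 1) at 94.9, Il13ra1 (the IL-13 binding chain that pairs with Il4ra) at 85.1 and Il10rb (the shared chain of the IL-10 receptor) at 52.4. Il17ra, next in order at 52.3, did not stand apart from Il10rb. The range over the 48 genes reached down to 0.0430 scaled CPM per kb for Il2ra, the high-affinity IL-2 chain. Levels of 20 or more scaled CPM per kb were thus held by receptors for interferon gamma, TNF, IL-13, IL-10, IL-17 and IL-36 and by the shared chains Il2rg and Il6st, with Tnfrsf21 and the decoy gene Tnfrsf23. Examples of receptors best known from lymphocytes were Il12rb2 at 9.71, Tnfrsf13b at 9.62 and Tnfrsf18 at 6.74 scaled CPM per kb. Il21r was at 1.03, and Tnfrsf4, Tnfrsf13c and Il2ra were at or below 0.1985.

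**Figure D1:**
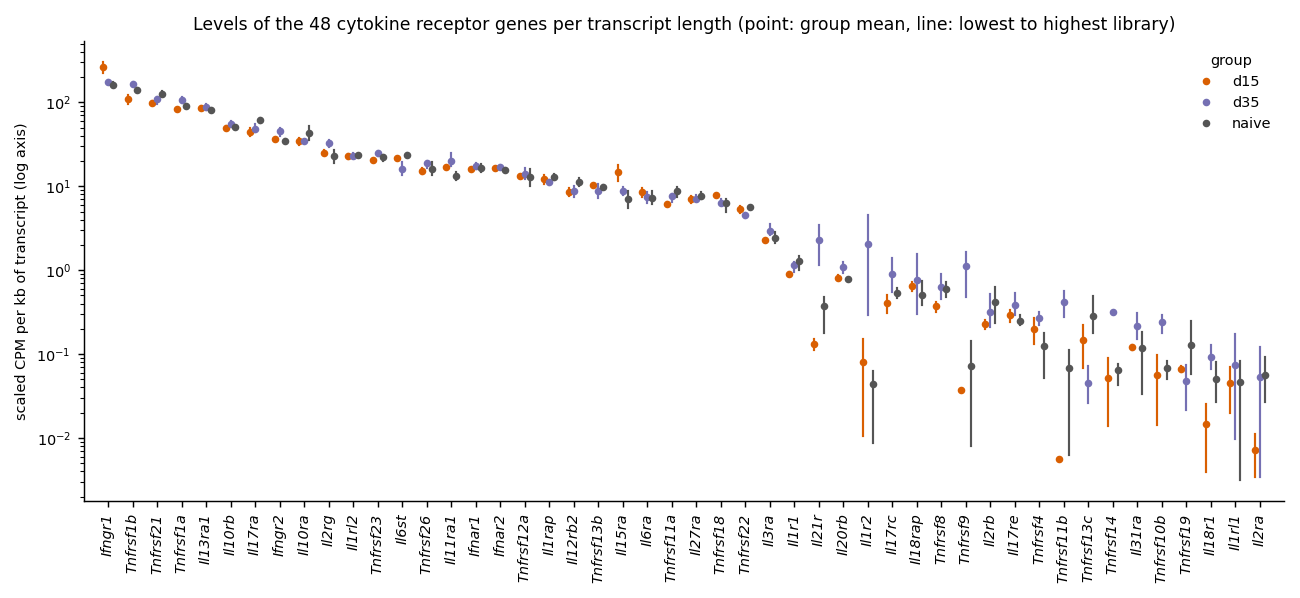
Mean level of each of the 48 receptor genes in scaled CPM per kilobase of transcript (log axis), by group, with lines from the lowest to the highest library, ordered by the mean over all 8 libraries. Ifngr1, at 191.9 scaled CPM per kb over all libraries, stands at the left and Il2ra, at 0.0430, at the right.

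Of the 48 genes, 38 passed the filter of at least 1 scaled CPM in at least 2 libraries and were tested with limma on log2(value + 1), with Benjamini-Hochberg adjustment over all 11273 genes tested. Il1r2, Tnfrsf11b and Tnfrsf9 passed only through d35 libraries, so a higher level there was part of how they came to be tested. At d15 against naive, Ifngr1 and Il15ra rose and Il17ra fell, 3 of 38 or 7.89%, where 4.37% of all genes tested were called, 2.37% up and 2% down. At d35 against naive, 8 of 38 were called, or 21.1%, against 16.2% of all genes (9.86% up and 6.32% down). Ifngr2, Il11ra1, Il1r2, Il21r, Il2rg, Tnfrsf11b and Tnfrsf9 rose and Il6st fell, 7 up and 1 down. Leaving out the 3 genes that passed only through d35, 5 of 35 were called, or 14.3%. The shares of all genes, here and for d35 against d15 below, still include any genes that passed only through d35. At d35 against d15, 6 of 38 were called, or 15.8%, against 7.39% of all genes (4.59% up and 2.8% down), and 4 of 35, or 11.4%, without those 3 genes. Il21r, Tnfrsf11b, Tnfrsf1a, Tnfrsf1b and Tnfrsf9 were higher at d35 and Ifngr1 was lower. Both comparisons against naive share the naive libraries, and both d15 comparisons share the d15 libraries. In all, 13 genes were called in at least 1 comparison, and those that did not pass numbered 35 of 38 for d15 over naive, 30 for d35 over naive and 32 for d35 over d15. The median log2 fold change of the 38 was -0.07 at d15, 0.12 at d35 and 0.14 at d35 against d15, where the medians over all genes tested were 0.0121, -0.0022 and -0.0026. Positive values made up 36.8%, 65.8% and 76.3% of the 38, and 51.9%, 49.6% and 49.6% of all genes. The d15 values rested on d15 replicate B, without which the median was -0.0127 and 19 of 38 values were positive.

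**Figure D2:**
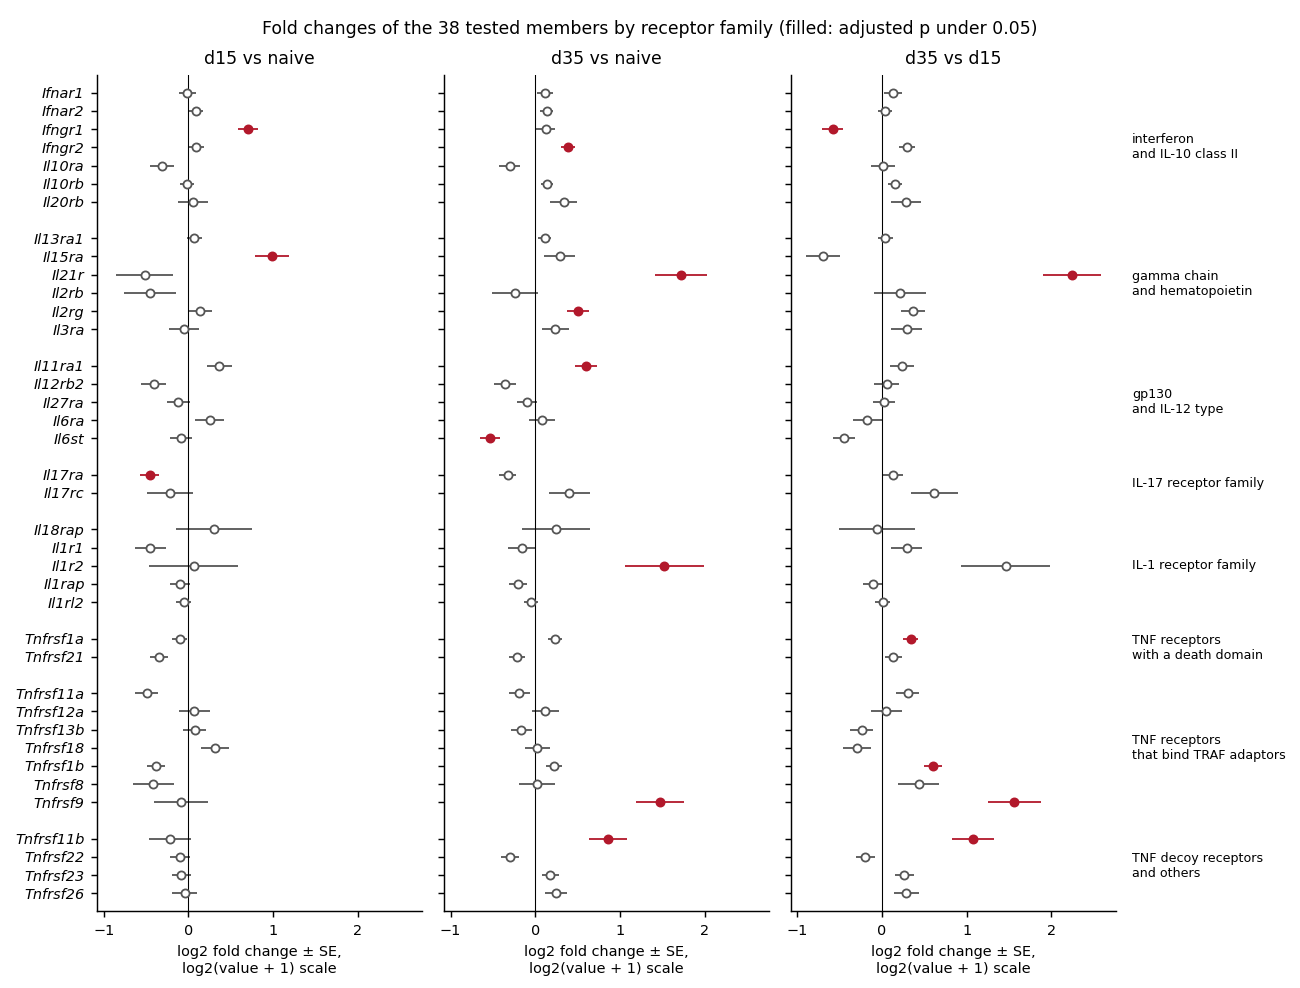
Log2 fold change of the 38 tested receptor genes, on the log2(value + 1) scale, with standard errors, for d15 over naive, d35 over naive and d35 over d15. Filled points passed the adjusted p of 0.05. Il21r reaches 1.73 at d35 over naive and 2.24 at d35 over d15.

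Ifngr1 encodes the ligand-binding chain of the interferon gamma receptor and Ifngr2 the signalling chain that joins it. Their promoters are shown because the 2 chains of 1 receptor moved at different times. Each is given as the 250 bases before the RefSeq start site on the gene's own strand (GRCm38.p6), Ifngr1 at chr10:19591699-19591948 and Ifngr2 at chr16:91546809-91547058, both on the plus strand. Capitals mark matches to a GC box (GGGCGG on either strand) and, in Ifngr2, to an NF-kB site (GGGA, any base, then TTTCC, on either strand).
Ifngr1: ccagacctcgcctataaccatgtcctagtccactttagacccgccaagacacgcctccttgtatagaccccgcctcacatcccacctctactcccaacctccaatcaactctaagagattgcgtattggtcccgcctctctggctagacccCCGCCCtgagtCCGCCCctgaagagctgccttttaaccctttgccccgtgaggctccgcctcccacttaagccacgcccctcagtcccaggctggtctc
Ifngr2: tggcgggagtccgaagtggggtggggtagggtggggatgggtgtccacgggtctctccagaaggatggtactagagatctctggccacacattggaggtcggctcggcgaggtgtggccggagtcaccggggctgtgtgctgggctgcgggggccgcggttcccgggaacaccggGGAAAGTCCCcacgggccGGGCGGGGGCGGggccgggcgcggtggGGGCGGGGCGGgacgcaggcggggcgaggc
The NF-kB match in Ifngr2 starts at base -75 from the start site, and its 4 GC boxes start at bases -57, -51, -30 and -25, the last 2 of them overlapping by 1 base. Those of Ifngr1 start at bases -99 and -88.

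Ifngr1 was at 470.1 and 647 scaled CPM in d15 replicates A and B, at 351, 362 and 395 in d35 replicates 1, 2 and 3, and at 368, 322 and 327 in naive replicates 1, 2 and 3. Both d15 libraries lay above all others, while d35 and naive libraries overlapped. On the log2 scale the fold change was 0.70 ± 0.12 (SE) at d15 over naive (limma adjusted p = 0.0191), 0.12 at d35 over naive (adjusted p = 0.469) and -0.58 ± 0.12 at d35 over d15 (adjusted p = 0.0193). The gene spans 19591949 to 19610229 on chromosome 10 of mm10. The d15 call ended without d15 replicate B (adjusted p = 0.182), naive replicate 2 (0.086) or naive replicate 3 (0.0598). The call between the times ended without d15 replicate B, where the difference was -0.35 (adjusted p = 0.191), or without d35 replicate 1 (0.0518).

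Ifngr2 took the other course. It was at 139 and 136 scaled CPM in the d15 libraries, at 182 (replicate 1), 149 (replicate 2) and 179 (replicate 3) at d35, and at 135, 125 and 127 in naive libraries. Every d35 library lay above every naive one, and the d15 values lay just above the naive range. As a log2 fold change this was 0.39 ± 0.08 (SE) at d35 over naive (limma adjusted p = 0.0137) and 0.09 at d15 over naive (adjusted p = 0.573). The d35 call ended without naive replicate 2 (adjusted p = 0.06). Per kilobase, the ratio of Ifngr1 to Ifngr2 was 5.92 and 8.36 at d15, between 3.38 and 4.25 at d35 and between 4.51 and 4.77 in naive libraries. The ratio was thus highest in both d15 libraries and lowest in the 3 d35 libraries, given as values with no test.

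Ifnar1 and Ifnar2, the chains of the type I interferon receptor, did not pass the test in any comparison. Ifnar1 lay between 58.6 and 73.1 scaled CPM and Ifnar2 between 45.7 and 54.0 in the 8 libraries. Their log2 fold changes ran from -0.01 to 0.13, and the groups overlapped for Ifnar1 throughout. Ifnar2, Il10rb, Ifnar1 and Ifngr2 lie within 193 kb on chromosome 16 (91372783 to 91565623), and Ifngr2 alone among these neighbours was called. Il10ra, the IL-10 binding chain, was at 133 and 109.7 scaled CPM at d15, at 125, 122 and 119 at d35, and at 126, 185 and 146 in naive libraries, with naive replicate 2 the highest. Il10rb was between 89.7 and 112 in all libraries, and Il20rb, a chain of the receptors for IL-20 type cytokines, between 2.11 and 3.49. None of the 3 passed the test (lowest limma adjusted p = 0.125, for Il10ra at d35 over naive).

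**Figure D3:**
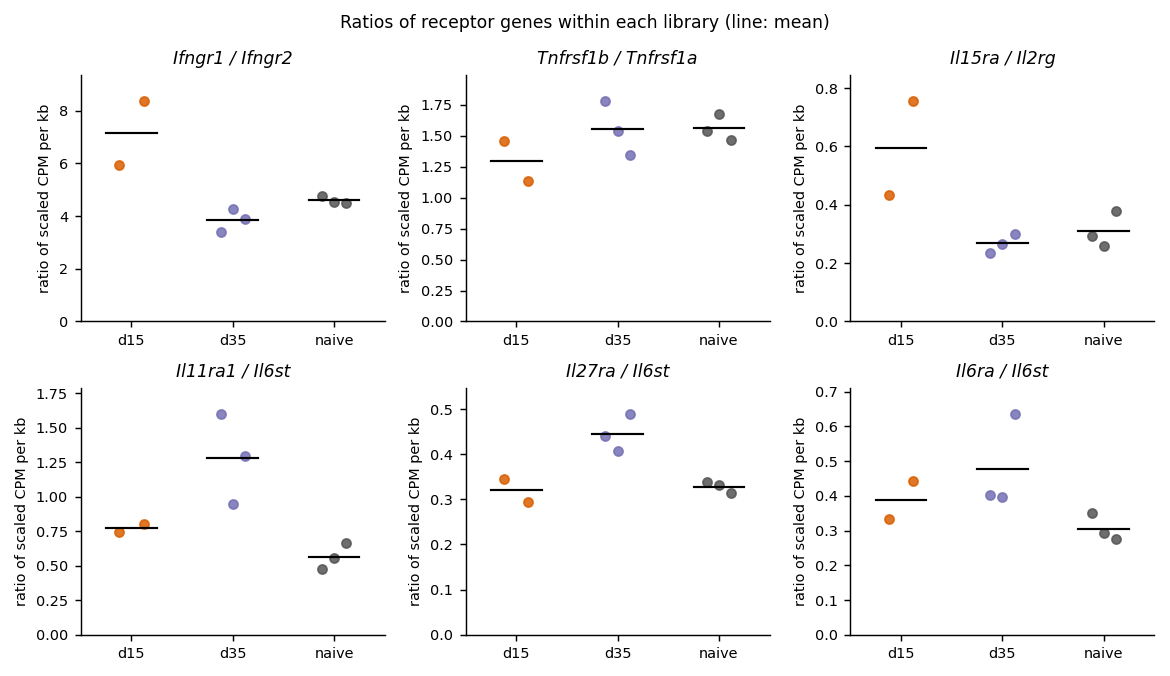
Ratio of the first to the second receptor gene in scaled CPM per kilobase, 1 point per library with a line at the group mean. For Ifngr1 over Ifngr2 the d15 libraries are at 5.92 and 8.36, the d35 libraries between 3.38 and 4.25 and the naive libraries between 4.51 and 4.77.

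Among receptors that use the common gamma chain, Il15ra, the chain that binds IL-15 and presents it to other cells, rose at d15. It was at 22.5 and 34.3 scaled CPM in d15 replicates A and B, at 16.3, 15.3 and 19.0 at d35, and at 10.7, 13.6 and 17.0 in naive libraries. The d15 libraries lay above all others, with replicate B well above A, and d35 and naive libraries overlapped. Its log2 fold change was 0.99 ± 0.20 (SE) at d15 over naive (limma adjusted p = 0.0291), 0.29 at d35 over naive (adjusted p = 0.300) and -0.70 at d35 over d15 (adjusted p = 0.067). The d15 call ended without d15 replicate B (adjusted p = 0.264), naive replicate 1 (0.0656) or naive replicate 2 (0.107). Il15ra lies on chromosome 2 at 11705290 to 11734317 and has 2 RefSeq start windows. The 250 bases before the second start, at chr2:11705462-11705711 on the plus strand, are shown because this gene had the largest rise at d15. A match to an AP-1 site (TGANTCA, the same on both strands) is in capitals, starting at base -30. The window of the first start, not shown, held no AP-1 match and a GC box after the start site.
Il15ra: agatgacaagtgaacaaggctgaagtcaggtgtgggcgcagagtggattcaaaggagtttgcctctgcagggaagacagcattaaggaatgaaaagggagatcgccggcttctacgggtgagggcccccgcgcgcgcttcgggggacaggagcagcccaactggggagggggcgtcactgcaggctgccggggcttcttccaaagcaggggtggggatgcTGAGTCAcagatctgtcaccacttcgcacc

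Il2rg, the common gamma chain itself, was at 44.9 and 39.2 scaled CPM at d15, at 59.4, 49.5 and 54.7 at d35, and at 31.4, 45.5 and 38.7 in naive libraries. All d35 libraries lay above all others, by a narrow margin between d35 replicate 2 and naive replicate 2. The log2 fold change at d35 over naive was 0.50 ± 0.13 (SE, limma adjusted p = 0.0265). That call ended without naive replicate 1 (adjusted p = 0.078), naive replicate 3 (0.0645), d35 replicate 1 (0.0812) or d35 replicate 3 (0.0659), and with the trend over transcript length removed (0.0757). Il15ra to Il2rg per kilobase was 0.433 and 0.756 at d15, 0.236 to 0.299 at d35 and 0.258 to 0.379 in naive libraries.

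Il21r, the receptor for the T cell cytokine IL-21, had the largest call in this family. It was at 0.277 and 0.379 scaled CPM at d15 (8 and 12 reads), at 8.66, 2.91 and 5.58 at d35 (249, 95 and 213 reads) and at 1.19, 1.17 and 0.441 in naive libraries (35, 47 and 12 reads). The 3 groups did not overlap, with d15 below naive and naive below d35. On the log2(value + 1) scale the change was 1.73 ± 0.31 (SE) at d35 over naive (limma adjusted p = 0.00633) and 2.24 ± 0.34 at d35 over d15 (adjusted p = 0.00365), and -0.52 at d15 over naive (adjusted p = 0.363). By summed reads, d35 held 17.7 times the level of d15 (exact conditional 95% interval 11.4 to 29.3, counting error only). Both calls held without each library in turn. The gene lies on chromosome 7 at 125603429 to 125633570. Within d35, replicate 2 was the lowest for Il21r and also had the lowest summed level of 12 monocyte and interstitial macrophage markers, 1181 scaled CPM against 2044 and 2097 in replicates 1 and 3. That sum was 1248 and 1483 at d15 and 657 to 1007 in naive libraries, and 8 of the 12 markers rose at d35 over naive. The summed level of 10 T and NK cell markers was 4.82 and 4.89 at d15, 4.96 to 8.81 at d35 and 7.63 to 8.52 in naive libraries, and Cd3g, Cd3d, Cd8a and Ncr1 were under 1 scaled CPM in every library. The part of these cells in the result was not tested. In bulk RNA, more cells of a type and more RNA per cell cannot be told apart.

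The other tested genes listed with this family, not all of which use the common gamma chain, did not pass. Il2rb, the IL-2 and IL-15 signalling chain, lay between 0.832 and 2.63 scaled CPM, Il3ra, the IL-3 binding chain, between 4.93 and 8.29, and Il13ra1 between 293 and 354. Il13ra1 was thus abundant in every group, and its log2 fold changes were 0.07 at d15 over naive, 0.11 at d35 over naive and 0.04 at d35 over d15 (adjusted p = 0.656, 0.357 and 0.845). Il2ra stayed at or below 0.538 scaled CPM and was not tested.

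Il6st encodes gp130, the signalling chain shared by IL-6, IL-11 and IL-27 receptors, and was the called gene that fell at d35. It was at 195 and 187 scaled CPM at d15, at 135 (replicate 1), 169.7 (replicate 2) and 118 (replicate 3) at d35, and at 218, 197 and 193 in naive libraries. All d35 libraries lay below all others, while d15 and naive overlapped. The log2 fold change was -0.54 ± 0.11 (SE) at d35 over naive (limma adjusted p = 0.0138), -0.45 at d35 over d15 (adjusted p = 0.0587) and -0.08 at d15 over naive (adjusted p = 0.723). The d35 call ended without naive replicate 1 (adjusted p = 0.0508). Its longest transcript has 8678 bases, and with the length trend removed the change at d35 over naive was -0.33 (adjusted p = 0.0389), that at d35 over d15 passed (-0.43, adjusted p = 0.0238) and that at d15 over naive was 0.10 (adjusted p = 0.58). The gene spans 112464070 to 112510086 on chromosome 13. The summed level of 12 endothelial markers was 173 to 227 scaled CPM at d35, 196 and 242 at d15 and 282 to 368 in naive libraries. Of the 12, 8 fell at d35 over naive and 3 at d15 over naive, and none was called at d35 over d15. The endothelial sum was below naive at both times. The median log2 fold change of the 12 markers over naive was -0.568 at d15 and -0.793 at d35. The part of endothelial cells in the fall of Il6st was not tested.

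Il11ra1, the IL-11 binding chain, moved the opposite way. It was at 33.4 and 34.7 scaled CPM at d15, at 49.7, 37.3 and 35.3 at d35 and at 23.9, 25.3 and 29.8 in naive libraries. Every d15 and d35 library lay above every naive one. The log2 fold change was 0.60 ± 0.13 (SE) at d35 over naive (limma adjusted p = 0.0151) and 0.36 at d15 over naive (adjusted p = 0.148). The d35 call ended without naive replicate 1 (adjusted p = 0.0532) or naive replicate 2 (0.0616). Il11ra1 has near-identical copies in the mouse genome and its span overlaps other genes, so how reads were assigned leaves its level uncertain. Per kilobase, Il11ra1 to Il6st was 0.741 and 0.803 at d15, 0.948 to 1.60 at d35 and 0.475 to 0.667 in naive libraries, and these ranges did not overlap. Il6ra to Il6st was 0.335 and 0.442 at d15, 0.398 to 0.635 at d35 and 0.276 to 0.349 in naive libraries. Il27ra to Il6st was 0.295 and 0.344 at d15, 0.407 to 0.488 at d35 and 0.314 to 0.339 in naive libraries.

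Il6ra and Il27ra, the IL-6 and IL-27 binding chains, did not pass the test themselves, with Il6ra between 52.9 and 82.2 scaled CPM and Il27ra between 16.9 and 22.6. Il12rb2, the IL-12 signalling chain, was at 22.7 and 28.3 scaled CPM at d15, at 22.2, 30.2 and 27.3 at d35 and at 30.5, 33.9 and 37.9 in naive libraries. Its naive values were the highest, but it missed the threshold at d35 over naive (log2 fold change -0.35, limma adjusted p = 0.0922), and passed without d35 replicate 2. Its span overlaps Serbp1. Il31ra, the IL-31 receptor, lay between 0.124 and 1.13 scaled CPM and was not tested.

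**Figure D4:**
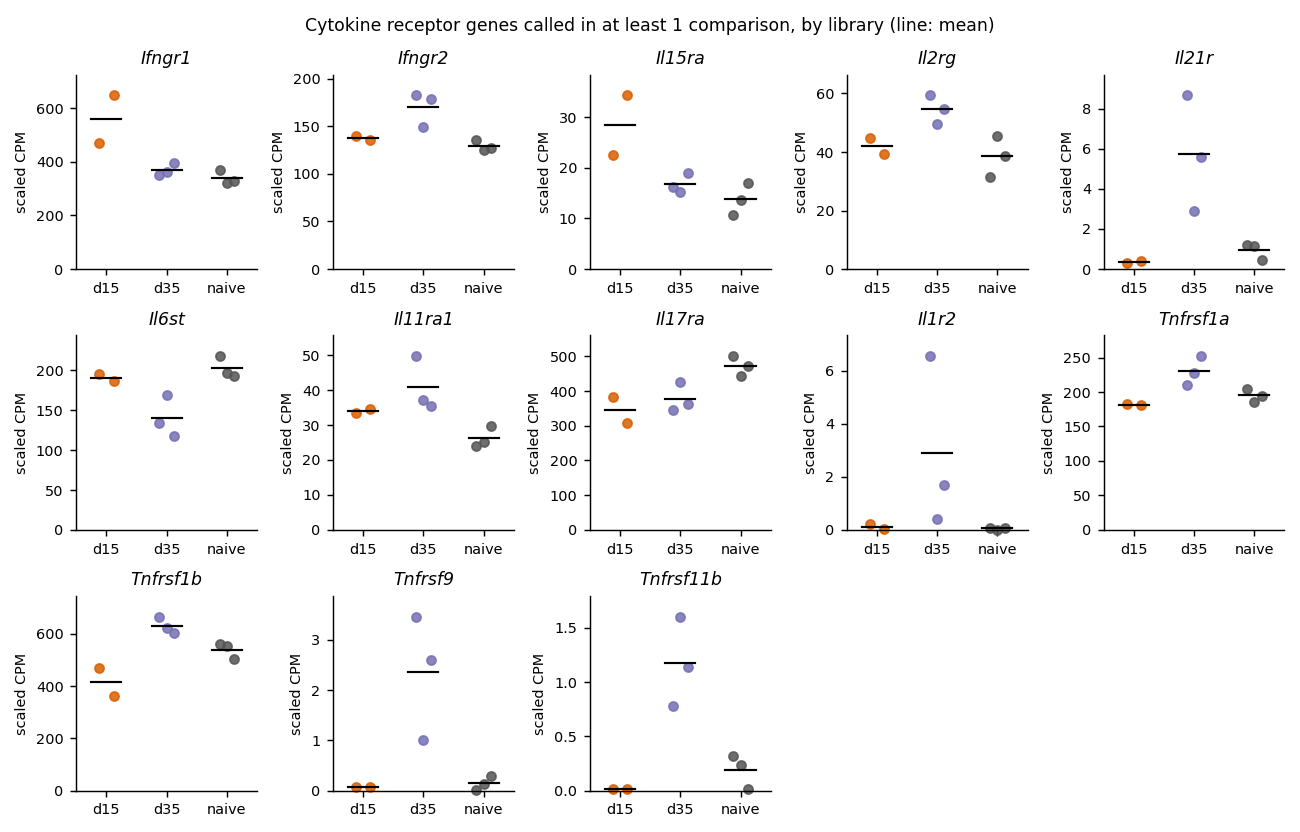
Level of the 13 receptor genes called in at least 1 comparison, in scaled CPM (linear axes from 0, a scale of its own for each gene), 1 point per library with a line at the group mean. Ifngr1 and Il15ra are highest in both d15 libraries, and Il21r and Tnfrsf9 are highest in the 3 d35 libraries.

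In the IL-1 receptor family the decoy receptor gene Il1r2 was called at d35. It was at 0.212 and 0.0152 scaled CPM at d15 (6 and 0 reads), at 6.54, 0.411 and 1.69 at d35 (188, 13 and 64 reads), and at 0.0841, 0.0124 and 0.0884 in naive libraries (2, 0 and 2 reads). The d35 libraries lay above all others but spread widely, and replicate 1 gave most of their reads. The log2 fold change on the log2(value + 1) scale was 1.53 ± 0.47 (SE, limma adjusted p = 0.0499) at d35 over naive and 1.46 at d35 over d15 (adjusted p = 0.125). By summed reads the ratio of d35 to naive was 65.3 (exact conditional 95% interval 25.2 to 242, counting error only). The call ended without any 1 of the naive libraries (adjusted p = 0.112, 0.134 and 0.109 for replicates 1, 2 and 3) or either d15 library (0.0703 without A and 0.0702 without B), and with the length trend removed (0.0984), with only d35 and naive libraries fitted (0.0706), on log2(value + 4) (0.0898) or by limma-voom on recovered reads (0.0864). Il1r2 passed the filter only through d35 libraries, and without d35 replicate 1 or 3 it fell below the filter and was not tested. The neutrophil marker S100a9 was at 5.92, 0.441 and 2.00 scaled CPM in d35 replicates 1, 2 and 3, the same order as Il1r2. Il21r and the first principal component gave the d35 libraries that order too. S100a9 was the only 1 of 5 neutrophil markers that limma called at d35 over naive. In limma, 3 of the 5 had an unadjusted p under 0.05 there, and DESeq2 called 3, edgeR 1 and limma-voom none. Their median log2 fold change was 0.482 at d35 over naive and -0.04 at d15 over naive. Limma called Cxcr2 higher at d35 than at d15. The sum of 5 neutrophil markers was 149 and 222 at d15, 135 to 267 at d35 and 175 to 202 in naive libraries. Mmp8 had the highest level of the 5. The part of neutrophils in the result was not tested.

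The signalling receptor Il1r1 was at 4.94 to 5.47 scaled CPM at d15, 5.49 to 7.20 at d35 and 5.87 to 8.56 in naive libraries and did not pass the test. The shared accessory chain Il1rap lay between 47.5 and 63.8, and Il1rl2, the IL-36 receptor, between 83.1 and 96.4, with no call for either. Il18rap, the IL-18 accessory chain, lay between 1.48 and 7.58, with d35 replicate 1 the highest, and had no call. Il18r1, the IL-18 binding chain, and Il1rl1, the IL-33 receptor ST2, stayed at or below 0.928 scaled CPM and were not tested. Il1r2, Il1r1, Il1rl2, Il1rl1, Il18r1 and Il18rap lie together within 478 kb on chromosome 1 (40074079 to 40551705), and of the 4 tested among them 1 was called.

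Il17ra, the signalling chain for IL-17A and IL-17F, was at 383 and 309 scaled CPM at d15, at 344, 426 and 364 at d35 and at 500.4, 443 and 474 in naive libraries. All naive libraries lay above all others. Its log2 fold change was -0.46 ± 0.11 (SE) at d15 over naive (limma adjusted p = 0.0499) and -0.33 at d35 over naive (adjusted p = 0.0525). The d15 call ended without any 1 of the naive libraries (adjusted p = 0.11, 0.118 and 0.0968 for replicates 1, 2 and 3), without d15 replicate A (0.0702) and without d15 replicate B, where the difference was -0.30 (adjusted p = 0.343). Its longest transcript has 7752 bases, and over all genes the median log2 fold change at d15 over naive was 0.188 in the shortest of 5 equal classes of transcript length and -0.146 in the longest. With that length trend removed Il17ra did not pass (adjusted p = 0.153), nor did it with edgeR (0.0554) or limma-voom (0.0555) on recovered reads. Il17rc, its partner chain, was at 0.701 and 1.17 scaled CPM at d15, 1.68, 1.26 and 3.23 at d35 and 1.06, 1.42 and 1.22 in naive libraries, with no call (adjusted p = 0.277 at d35 over naive). Il17re, the IL-17C receptor, reached 1.58 in d35 replicate 3 and was not tested.

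Tnfrsf1a and Tnfrsf1b are the receptors for TNF, the first carrying a death domain and the second binding TRAF2. Their promoters are shown because both were higher at d35 than at d15. Tnfrsf1a is given at chr6:125349473-125349722 on the plus strand and Tnfrsf1b at chr4:145246871-145247120 on the minus strand, each as the 250 bases before the start site. Capitals mark matches to the STAT element GAS (TTCNNNGAA, the same on both strands), to the core of an interferon-stimulated response element (ISRE, a pair of GAAA with any 2 bases between them, on either strand) and to GC boxes.
Tnfrsf1a: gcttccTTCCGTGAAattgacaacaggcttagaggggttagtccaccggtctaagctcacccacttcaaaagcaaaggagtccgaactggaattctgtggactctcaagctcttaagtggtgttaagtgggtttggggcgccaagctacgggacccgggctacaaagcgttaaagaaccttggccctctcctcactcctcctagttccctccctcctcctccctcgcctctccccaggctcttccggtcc
Tnfrsf1b: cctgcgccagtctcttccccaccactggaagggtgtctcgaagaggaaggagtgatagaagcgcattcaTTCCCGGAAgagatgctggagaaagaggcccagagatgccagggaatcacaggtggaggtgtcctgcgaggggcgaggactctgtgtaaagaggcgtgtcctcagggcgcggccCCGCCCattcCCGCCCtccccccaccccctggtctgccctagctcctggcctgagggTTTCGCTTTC
The GAS match starts at base -244 in Tnfrsf1a and at base -181 in Tnfrsf1b. In Tnfrsf1b the GC boxes start at bases -67 and -57 and the ISRE core at base -10.

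Tnfrsf1b was at 469 and 363 scaled CPM at d15, at 663, 622 and 601 at d35, and at 559.8, 552 and 503 in naive libraries. The 3 groups did not overlap, with d15 lowest and d35 highest. This gave a log2 fold change of 0.60 ± 0.11 (SE) at d35 over d15 (limma adjusted p = 0.00823), -0.38 at d15 over naive (adjusted p = 0.0649) and 0.22 at d35 over naive (adjusted p = 0.133). The call between the times ended without d15 replicate B (adjusted p = 0.104). Tnfrsf1a had the same order of groups, at 182 and 180.5 scaled CPM at d15, 210.2, 228 and 252 at d35, and 205, 186 and 194 in naive libraries. Its log2 fold change at d35 over d15 was 0.34 ± 0.09 (SE, adjusted p = 0.0401). That call ended without d15 replicate A (adjusted p = 0.179) or B (0.228), naive replicate 2 (0.0598) or 3 (0.067), or d35 replicate 2 (0.0567) or 3 (0.075). Per kilobase, Tnfrsf1b to Tnfrsf1a was 1.14 and 1.46 at d15, 1.35 to 1.78 at d35 and 1.46 to 1.68 in naive libraries.

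Limma did not call the other death domain receptors in the comparisons as described. Tnfrsf21 was at 376 and 339.5 scaled CPM at d15, at 410.2, 422 and 348 at d35 and at 498, 442 and 428 in naive libraries. Both tumor groups lay below naive, with limma adjusted p = 0.0705 at d15 and 0.132 at d35. DESeq2 called it lower at d15, as did limma with only d15 and naive libraries fitted or without d35 replicate 3. Tnfrsf10b, the mouse TRAIL death receptor, held 10 reads at d15, 74 at d35 and 19 in naive libraries and was not tested, and with no filter on low values limma called it higher at d35 than in naive. Its ratio of d35 to naive by summed reads was 3.84 (exact conditional 95% interval 2.30 to 6.73, counting error only).

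Tnfrsf9 (4-1BB), a costimulatory receptor best known on activated T cells, was near the detection floor outside d35. It was at 0.0815 and 0.0758 scaled CPM at d15 (2 reads each), at 3.45, 1.02 and 2.60 at d35 (99, 33 and 99 reads) and at 0.0168, 0.136 and 0.300 in naive libraries (0, 5 and 8 reads). All d35 libraries lay above all others, and d15 and naive overlapped. The log2(value + 1) change was 1.48 ± 0.28 (SE) at d35 over naive (limma adjusted p = 0.0087) and 1.56 ± 0.32 at d35 over d15 (adjusted p = 0.0157). By summed reads the ratio of d35 was 17.5 to naive (exact conditional 95% interval 10.0 to 33.4) and 36.8 to d15 (14.2 to 136), covering counting error only. The call against naive held without each library in turn, and the call against d15 ended without d15 replicate A (adjusted p = 0.0946) or B (0.119) and by limma-voom on recovered reads (0.0757). Tnfrsf9 passed the filter only through d35 libraries, and leaving out 1 library does not remove that selection. The d35 libraries had the same order as for Il21r, with replicate 2 the lowest. Tnfrsf9 (chromosome 4, 150914562 to 150946102) overlaps Camta1 on the other strand, and whether counting used the strand is not given in the sources used here.

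Tnfrsf11b encodes osteoprotegerin, the secreted decoy for RANK ligand, and Tnfrsf11a encodes RANK itself. Tnfrsf11b had 0 reads in both d15 libraries, 22, 52 and 43 reads at d35 (0.781, 1.60 and 1.14 scaled CPM) and 9, 9 and 0 reads in naive libraries. All d35 libraries lay above all others. The log2(value + 1) change was 0.86 ± 0.22 (SE) at d35 over naive (limma adjusted p = 0.0282) and 1.08 ± 0.25 at d35 over d15 (adjusted p = 0.0274). By summed reads d35 was 6.41 times naive (exact conditional 95% interval 3.88 to 11.2, counting error only) and at least 12.4-fold higher than d15, set against a floor of 3 reads per library. The call against naive ended without any 1 of the naive libraries (adjusted p = 0.0522, 0.0778 and 0.0861 for replicates 1, 2 and 3), and the call against d15 without d15 replicate A (0.139) or B (0.166). Tnfrsf11b passed the filter only through d35 libraries, and without d35 replicate 2 or 3 it fell below the filter and was not tested. Tnfrsf11a was at 28.9 and 32.3 scaled CPM at d15, at 40.8, 41.2 and 32.6 at d35 and at 37.5, 48.9 and 44.6 in naive libraries. Its d15 values were the lowest, with a log2 fold change of -0.49 over naive that missed the threshold (adjusted p = 0.0612). DESeq2 called both Tnfrsf11a and Tnfrsf11b lower at d15 than in naive.

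The remaining TNF receptor genes had no call in limma. Tnfrsf23 and Tnfrsf22, mouse decoys for TRAIL, lay between 29.2 and 39.3 and between 17.3 and 24.4 scaled CPM, and their neighbour Tnfrsf26 between 42.2 and 62.2. These 3 lie within 78 kb on chromosome 7. Tnfrsf13b (TACI, a receptor for BAFF and APRIL) lay between 18.8 and 27.3, Tnfrsf12a (Fn14, the TWEAK receptor) between 9.80 and 16.1, Tnfrsf18 (GITR) between 5.94 and 9.74 and Tnfrsf8 (CD30) between 1.09 and 3.07. Tnfrsf13c (BAFF receptor), Tnfrsf14 (HVEM), Tnfrsf19 (TROY) and Tnfrsf4 (OX40) were not tested. Tnfrsf13c held 17 reads at d15, 8 at d35 and 59 in naive libraries, and the sum of 6 B cell markers was 6.10 and 7.07 scaled CPM at d15, 4.51 to 8.11 at d35 and 12.5 to 20.9 in naive libraries. The part of B cells in those reads was not tested. Tnfrsf14 held 3 reads at d15, 36 at d35 and 6 in naive libraries.

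Genes that signal with these receptors were described from lists. Of 12 interleukin and interferon ligand genes tested, none was called at d15 (median log2 fold change -0.015), 1 rose at d35 and 1 was higher at d35 than at d15. At d15, 3 of the 12 had an unadjusted p under 0.05 in limma, and edgeR called none, limma-voom none and DESeq2 2. The first was Ebi3, a subunit of IL-27 and IL-35, at 1.26 and 0.834 scaled CPM at d15, 2.79, 1.66 and 1.92 at d35 and 0.387, 0.630 and 0.477 in naive libraries (limma adjusted p = 0.00962 for d35 over naive). The second was Il1b, at 37.1 and 19.9 at d15, 199, 79.8 and 200.1 at d35 and 32.8, 98.3 and 78.1 in naive libraries, with a log2 fold change of 2.39 at d35 over d15 (adjusted p = 0.0144). Limma called none of 7 tested TNF family ligand genes in any comparison, with 2, 2 and 1 at an unadjusted p under 0.05 for d15 over naive, d35 over naive and d35 over d15. At d35 over naive DESeq2 called 2 of these 7 and limma-voom 1, and no other such calls were made by these tools or by edgeR. Tnf itself, the ligand of Tnfrsf1a and Tnfrsf1b, spread from 16.6 to 204 scaled CPM within the naive group.

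Among 13 receptors outside the symbol rule, Il4ra, the IL-4 and IL-13 receptor chain, rose at both times. It was at 266 and 284 scaled CPM at d15, at 296, 277 and 272 at d35 and at 215, 203 and 165 in naive libraries (limma adjusted p = 0.03 at d15 and 0.00605 at d35). Csf1r, the M-CSF receptor, and Il7r, the IL-7 receptor, rose at d35, with log2 fold changes of 0.55 (adjusted p = 0.00715) and 2.71 (adjusted p = 0.00363). Il7r pairs with Il2rg and was at 30.1, 5.89 and 10.9 scaled CPM at d35, again lowest in replicate 2, against 1.45 and 1.35 at d15 and 0.725 to 1.66 in naive libraries. Between the times, Csf1r, Il7r and Csf2rb2 were higher and Lepr, the leptin receptor, lower at d35. Fas rose at both times (adjusted p = 0.00583 at d15 and 0.013 at d35), the 1 gene called by limma, edgeR and limma-voom among 5 TNF receptor family genes outside the rule. DESeq2 called 2 of these 5 at d15 over naive and 1 at d35 over d15. The median log2 fold change of the 13 receptors was -0.018 at d15 and 0.230 at d35.

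Of 11 tested JAK and STAT pathway genes, none was called at d15 by limma, edgeR or limma-voom and 1 by DESeq2, with 2 at an unadjusted p under 0.05 in limma. Irf9 rose at d35 (log2 fold change 0.56, limma adjusted p = 0.0135) and Stat3 was higher at d35 than at d15 (0.26, adjusted p = 0.0489). Stat3 was not called by edgeR or limma-voom. Of 17 adaptors and kinases of IL-1 and TNF receptors, Traf5 rose at d35 over naive (0.49, adjusted p = 0.0239), and limma called no other in any comparison. Of the inhibitors of cytokine signalling, limma called 2 of 21 at d15, where Ptpn1 rose and Ptpn6 fell, and 5 of 21 at d35, where Socs1, Socs3, Socs6, Ptpn1 and Usp18 rose, against 4.37% and 16.2% of all genes. At d15 edgeR and limma-voom each called 1 of the 21 and DESeq2 3. Socs3, an inhibitor that binds gp130, was at 49.9 and 20.1 scaled CPM at d15, at 103, 48.1 and 146 at d35 and at 22.7, 41.4 and 23.8 in naive libraries (log2 fold change 1.64 at d35 over naive, adjusted p = 0.0235). Among 5 proteases and cofactors that shed receptors such as the TNF receptors, Adam17 and Rhbdf1 fell at d15, and Rhbdf2 rose and Rhbdf1 fell at d35. Adam17 was at 239 and 199 scaled CPM at d15, at 365, 316 and 295 at d35 and at 290.1, 316 and 299 in naive libraries, lowest at d15 as for Tnfrsf1a and Tnfrsf1b. Its log2 fold change was 0.57 at d35 over d15 (adjusted p = 0.0104).

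In the authors' deposited table of d15 against naive, 34 of the 48 genes were listed and 5 were past an adjusted p of 0.05, against 3.61% of the 10778 genes there. In the authors' deposited table Ifngr1 had a log2 fold change of 0.70 (adjusted p = 0.000136) and Il15ra of 1.02 (adjusted p = 0.0186). The authors' deposited table also gave Il17ra at -0.47 (adjusted p = 0.00268), Tnfrsf1b at -0.39 (adjusted p = 0.0402) and Tnfrsf21 at -0.37 (adjusted p = 0.019), of which Tnfrsf1b and Tnfrsf21 missed the threshold in limma. Both analyses compare the same groups, so neither is independent of the other.

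Promoter letters were searched in RefSeq windows of 300 bases, 250 before and 50 after each start site, on both strands. Of the 48 genes, 39 had a window, 47 windows in all of 32851 in the table. The GAS letters were in 11 of the 47 windows (23.4%) and in 8.3% of all windows, held by Ifnar1, Ifnar2, Il12rb2, Il18r1, Il1r2, Il31ra, Tnfrsf18, Tnfrsf19, Tnfrsf1a, Tnfrsf1b and Tnfrsf9. The GC box was in 55.3% of the 47 windows and 35.7% of all windows. The ISRE core was in 6.38% and 3.44%, the NF-kB letters in 2.13% and 0.411%, the AP-1 letters in 6.38% and 7.81%, the PU.1 letters (GAGGAAGT) in 2.13% and 3.2% and a TATA box (TATAAA) in 4.26% and 13.6%. These are counts of letters in a window, and no binding was measured.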

How the data were processed

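Expression had been measured by RNA sequencing of alveolar macrophages in 8 libraries. The labels' protocols give 20000 sorted cells and 1 ng of RNA per SMART-Seq low-input library. The submitters' processing notes name STAR 2.5, mm10 and edgeR without a version; which program and annotation counted the reads, and whether by strand, is not given in the sources used here. The values deposited by the authors are a signal made from read counts, in the form (reads + 0.5) over a scaled library size, and 100% of them gave whole reads within 0.001. The deposited table holds 12701 genes, none with fewer than 41 reads over all libraries, so it had been filtered. The authors' deposited table of d15 against naive gives, per the file headers, log2 fold changes with a test score and p-values. The d15 columns of the expression table are numbered 2 and 3 where the titles say 1 and 2, so these columns were assigned to the group only, as replicates A (column number 2) and B (column number 3).

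Since this unit is not raw counts, the main test became limma 3.58.1 (R 4.3.3), in place of edgeR's quasi-likelihood test. The 11273 genes that reached 1 in 2 or more libraries were fitted as log2(value + 1) with an intensity trend, with group as the only term and all 8 libraries in 1 fit (residual df 5, prior df 5.72). Benjamini-Hochberg adjustment ran over all these genes, with calls at 0.05. Folds on this scale understate the change of low genes. Alternatives were edgeR 4.0.16, DESeq2 1.42.0 and limma-voom on recovered reads, other pseudocounts, filters and scaling, removal of the transcript length trend, fits of only the groups compared, a replicate block and each library left out. The fit was also run on simulated data, whose outcome is not given here and is not used as support for the calls. Reads were compared within groups, and chi-square per degree of freedom of 14.7 to 49.0 left no library as a copy of another. Positions and lengths come from GENCODE M21 (GRCm38), with the longest protein-coding transcript of each gene, and promoters from RefSeq (GRCm38.p6). Named genes were those called in any comparison, the 6 highest per kilobase, the 2 largest uncalled changes per comparison and, per list, the 3 called genes with the smallest adjusted p or the highest gene; others were named to account for every receptor. The receptor genes and lists were chosen with earlier results of these data known.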

Additional observations from a re-analysis of the deposited data

Results flagged for a closer look

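The effects at d35 and at d15, each against naive, differed for 6 receptor genes by the limma test of d35 against d15, and the naive libraries cancel in that difference. The difference in log2 fold change, d35 minus d15, was 2.2437 for Il21r, 1.5632 for Tnfrsf9, 1.0793 for Tnfrsf11b, 0.604 for Tnfrsf1b, 0.337 for Tnfrsf1a and -0.5794 for Ifngr1. Tnfrsf9 and Tnfrsf11b reached the filter on low values only through d35 libraries, so a higher level there was part of how they came to be tested. Of these, Il21r kept its call without each library in turn, while the other 5 each missed the threshold without at least 1 library.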

How the results depend on the processing

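No called change of a named receptor gene turned its direction under the alternatives run. Of 409 alternative values for 23 changes (those called and the named uncalled ones of each comparison), 345 kept their side of the threshold, 58 fell short of it and 6 came to pass it. Other uncalled changes also passed under some alternatives, under DESeq2 those of Tnfrsf11b, Tnfrsf1b and Tnfrsf21 at d15 over naive, Il17ra and Tnfrsf1a at d35 over naive, and Ifngr2 and Il6st at d35 over d15. At d15 over naive, 3 genes were called, against 7 with DESeq2 and 6 with only d15 and naive libraries fitted. The calls over all genes in these fits numbered 493, 1451 and 1454. Leaving out 1 library gave 0 to 5, with 0 without d15 replicate B or naive replicate 2 (11 and 64 of all genes). It gave 1 without naive replicate 1 or 3 (231 and 110 of all genes) and 5 without d35 replicate 3 (1084). At d35 over naive, 8 were called (1824 of all genes), against 5 (1581) with a value of at least 5 required and 5 (1461) with the replicate block, where Il1r2, Il2rg and Tnfrsf11b missed the threshold (adjusted p = 0.0539, 0.0582 and 0.0685). Leaving out 1 library gave 3 to 9. The fewest were 3 without naive replicate 1 (907 of all genes) and 4 without naive replicate 2 (628). There were 5 without naive replicate 3 (969) or d35 replicate 3 (980), and 9 without d35 replicate 2 (2288). At d35 over d15, 6 were called (833 of all genes), against 2 (411) with only d35 and d15 libraries fitted, where Ifngr1, Tnfrsf11b, Tnfrsf1a and Tnfrsf9 missed the threshold (adjusted p = 0.0616, 0.0692, 0.0926 and 0.0528). Leaving out 1 library gave 1 to 7, with 1 without d15 replicate B (184 of all genes). It gave 3 without d15 replicate A (310) and 7 without d35 replicate 2 (1046). The cause of these moves was not tested. Deviations of same-numbered d35 and naive libraries correlated at -0.007, -0.046 and 0.147, so their numbers were not taken to pair them. The replicate block could not be fitted for d15, since the d15 columns carry other numbers than their titles. Depth limits Il1r2, Tnfrsf9, Tnfrsf11b and the 10 untested genes, which rest on few reads.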
